A study of Mus musculus with 4 samples.

Results

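The clustered protocadherins are a family of cell-surface adhesion genes that lie in 3 neighbouring clusters, alpha, beta and gamma, on mouse chromosome 18. Members were taken by name from the GENCODE vM21 annotation, as the genes on that chromosome whose symbol names a clustered alpha, beta or gamma protocadherin (57 protein-coding genes and 1 polymorphic pseudogene). This gave 58 genes, of which 48 are among the 28883 genes that have a level in any gene class of the data. The 58 are 12 alpha, 22 beta, 12 gamma A, 7 gamma B and 5 C-type genes (Pcdhac1, Pcdhac2, Pcdhgc3, Pcdhgc4 and Pcdhgc5), which stand at the downstream ends of the alpha and gamma clusters. The rule used no measured value.

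DNA methylation was read by bisulfite sequencing in C3H10T1/2, a mouse cell line used as mesenchymal stem cells (MSCs). Cells received a control siRNA (NC) or an siRNA against DNMT1 (siDNMT1), the enzyme that copies methylation onto the new strand after replication, with a transfection time of 48 h. They were then left uninduced, or were induced towards osteoblasts (OB) for 3 days with 50 µM ascorbic acid, 10 mM β-glycerophosphate and dexamethasone. These are 4 conditions with 1 library each, so no difference between conditions has a replicate check and no p-value can be given.

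Each value is the methylation level of a region, the fraction of methylated CpG cytosines from 0 to 1, and each gene has at most 1 level per class (promoter, 5′ UTR, exons, introns, 3′ UTR). The libraries list between 155398 and 159705 regions over 8 region classes. Read counts were not among the values used, so the depth behind a level is unknown. Some levels are simple fractions, such as 0.20 and 0.30 for Pcdhb2, 0.25 for Pcdhga4 and 0.125 for a shore. A small number of reads can give such values, and the part of low depth in the differences below was not tested. A difference of at least 0.1 was counted as a change, and comparisons used the regions that every library lists. RNA was not analysed here, so neither the DNMT1 knockdown nor the identity of the cells can be checked from these values.

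In the alpha and gamma clusters each gene has a variable first exon with a promoter of its own, which is spliced to a few constant exons that all genes of the cluster share. Genes of the beta cluster have no constant exons, and the extracellular and membrane parts of a protein come from the variable exon. In neurons, individual cells use different sets of these promoters, which gives each cell a surface identity that guides self-avoidance of its branches, and promoter methylation and CTCF binding are known to take part in the choice. C-type genes are the exception, being used more uniformly across neurons.

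The clusters lie on the plus strand of GRCm38 (the assembly of mm10). The alpha cluster spans chr18:36930184-37187661 (257 kb, 14 genes with Pcdhac1 and Pcdhac2), the beta cluster chr18:37264938-37524479 (260 kb, 22 genes) and the gamma cluster chr18:37661793-37841873 (180 kb, 22 genes with Pcdhgc3, Pcdhgc4 and Pcdhgc5). The assembly was checked on the CpG islands of the data: 14354 of 14354 began and ended with a CG dinucleotide there. GENCODE gives the symbol Pcdha11 to a pair of alpha genes, and the first of them (ENSMUSG00000007440) is called Pcdha10 here, after the nearest RefSeq start.

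The exons of the family were mostly listed and its promoters mostly not. Exons were listed for 48 of the 58 genes (82.8%), introns for 37, 3′ UTRs for 15, 5′ UTRs for 13 and promoters for 7 (12.1%). Of all 21938 protein-coding genes, 64% had a promoter level and 71.3% an exon level. The Hox genes, another family in dense clusters, had a promoter level for 89.7% of 39 genes, and the olfactory receptor genes, a large tandem family, for 5.4% of 1093. No alpha gene and no gamma B gene had a promoter level, against 1 of 22 beta, 3 of 12 gamma A and 3 of 5 C-type genes. In the beta cluster 10 genes had no level of any class: Pcdhb4, Pcdhb6, Pcdhb8, Pcdhb9, Pcdhb11, Pcdhb12, Pcdhb13, Pcdhb14, Pcdhb19 and Pcdhb21.

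**Figure D1:**
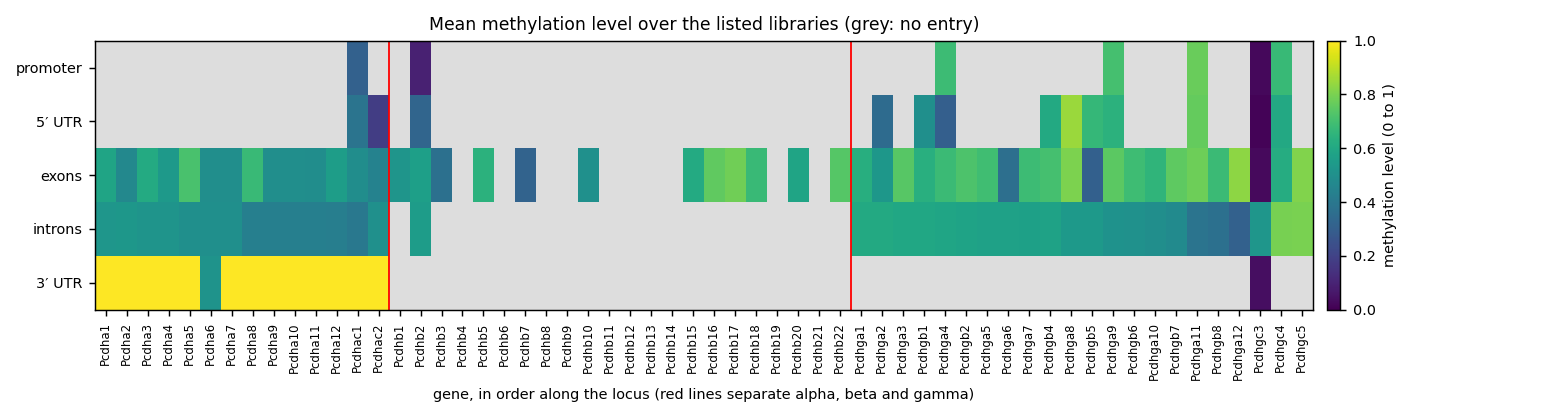
Mean methylation level (colour, 0 to 1) of each of the 58 genes (columns, in order along the locus) in each gene class (rows), averaged over the libraries that list it, with grey for no level. Promoter and 5′ UTR levels are sparse, 10 beta genes are grey throughout, the alpha 3′ UTRs are at 1 for 13 genes, and Pcdhgc3 is dark in its promoter, 5′ UTR, exons and 3′ UTR.

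In the genome sequence, CpG sites of these genes are denser in the first exons than upstream of them. The 2 kb upstream of the gene start held a median of 18 CpG (range 5 to 53) over the 58 genes, against 29 over all protein-coding genes. First exons were denser in CpG than this upstream window in 58 of 58 genes, with medians of 30.7 and 9 CpG per kb. The motif CCGG, the cut site used to enrich CpG-rich fragments in reduced representation protocols and the same on both strands, was present in 67.2% of these upstream windows and in 81.1% of those of all protein-coding genes. Of the protein-coding genes with 0, 1, 2 and 3 or more CCGG upstream, 18.2%, 38%, 64% and 91.8% had a promoter level. The corresponding counts in the family were 2 of 19, 2 of 22, 1 of 12 and 2 of 5. Among beta genes, first exons held a median of 5.5 CCGG where an exon level was listed (12 genes) and 2.5 where none was (10 genes). The latter include Pcdhb8, whose first exon as taken here is a piece of 185 bases with 4 CpG and 0 CCGG. First-exon density was not computed over all genes.

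The 7 promoter levels fell into separated ranges, with Pcdhgc3 and Pcdhb2 low, Pcdhac1 intermediate and 4 gamma genes high. Pcdhgc3, the first of the gamma C-type genes, had a promoter level of 0.0300 in NC uninduced, 0.0190 in siDNMT1 uninduced, 0.0138 in NC OB and 0.0270 in siDNMT1 OB cells. It was the lowest of the 7 in 3 of the 4 libraries. In NC uninduced cells Pcdhb2, the second gene of the beta cluster, was lower, at 0.0235.

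Pcdhac1, the first alpha C-type gene, had promoter levels of 0.339, 0.325, 0.284 and 0.289 in the same order of libraries. Both OB libraries were lower than both uninduced libraries. Pcdhgc4 had 0.715, 0.638, 0.677 and 0.669, highest in the NC uninduced library. In the gamma A genes the promoter level ranged from 0.684 to 0.693 for Pcdhga4, the lowest of the group by its mean, and from 0.764 to 0.784 for Pcdhga11, the highest. Pcdhga9 lay between them at 0.693, 0.693, 0.699 and 0.734. The median over the 7 mean levels was 0.675, against 0.180 over all 20152 promoters, and 4 of 7 (57.1%) were at 0.5 or above against 25% of all promoters.

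Some of these promoter entries may not describe the start of the variable exon. Pcdhga4, Pcdhga9 and Pcdhgc4 have further annotated transcript starts up to 1674, 433 and 377 bases downstream of the gene start, and which start the promoter level refers to is not given. The upstream windows of Pcdhga4, Pcdhga9 and Pcdhga11 also overlap an exon of another member.

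Pcdhb2 was the sole family promoter that changed with siDNMT1. In uninduced cells its level was 0.0235 in NC and 0.20 in siDNMT1, a rise of 0.176, and this was 1 of 7 members changed where 1.48% of all promoters changed. In OB cells the levels were 0.0667 in NC and 0.0706 in siDNMT1, and 0 of 7 members changed, against 2.19% of all promoters. Levels in the uninduced siDNMT1 library thus stood apart from the other 3 libraries, which lay between 0.0235 and 0.0706. The upstream window of Pcdhb2 holds 14 CpG and 1 CCGG. The next difference in size was that of Pcdhgc4 in uninduced cells, -0.0763. Differences in the remaining members and in OB cells lay between -0.0134 and 0.0347.

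Between the NC libraries, OB minus uninduced, 0 of 7 promoters changed (all promoters 2.17%), with differences from -0.0551 for Pcdhac1 to 0.0431 for Pcdhb2. Between the siDNMT1 libraries Pcdhb2 fell by 0.129 and was 1 of 7 members changed (all promoters 3.36%). These comparisons share libraries with the siDNMT1 comparisons, so the fall and the rise of Pcdhb2 rest on the same siDNMT1 uninduced value.

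5′ UTR levels, which lie at the start of the variable exon, spread from near 0 to above 0.8 among 12 genes with all 4 libraries. Pcdhgc3 was lowest, with 0.0109, 0.00955, 0.0104 and 0.00750, in NC uninduced, siDNMT1 uninduced, NC OB and siDNMT1 OB cells. Pcdhga8 was highest, between 0.844 and 0.856. The median of the 12 mean levels was 0.552, against 0.0273 over all 11491 5′ UTRs, and 6 of 12 (50%) were at 0.5 or above against 8.92%.

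The other C-type genes with a 5′ UTR level lay between these ends. Pcdhac1 had 0.391, 0.407, 0.370 and 0.376, and Pcdhac2, the second alpha C-type gene, 0.171, 0.206, 0.177 and 0.165. Pcdhgc4 had 0.643, 0.622, 0.590 and 0.564, lower in both OB libraries than in both uninduced ones. Of the gamma A genes, Pcdhga2 lay between 0.325 and 0.384 and Pcdhga11 between 0.748 and 0.777. Pcdhgb1 in the gamma B group lay between 0.462 and 0.545. Pcdhga8, Pcdhga2 and Pcdhgb1 were chosen after their values were seen.

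**Figure D2:**
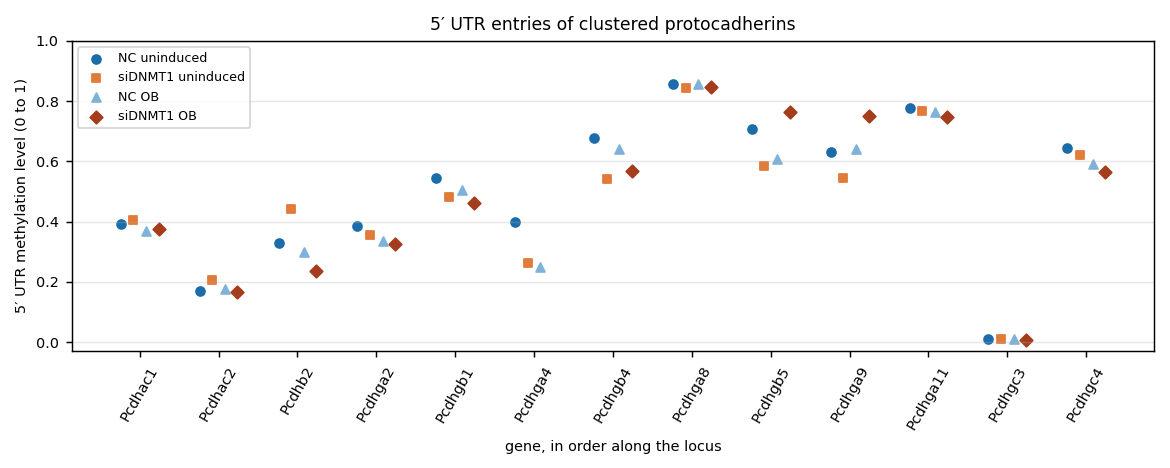
Methylation level (vertical axis, 0 to 1) of the 13 listed 5′ UTRs in order along the locus, with 1 point per library and no error, since each condition has 1 library. Pcdhgc3 lies near 0 in all 4 libraries, whereas Pcdhb2, Pcdhga4, Pcdhgb4, Pcdhgb5 and Pcdhga9 spread by over 0.1 between libraries. Pcdhga4 lacks the siDNMT1 OB value.

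In uninduced cells 3 of 12 5′ UTRs changed with siDNMT1, against 1.40% of all 5′ UTRs and 4.48% of those with a mean level between 0.2 and 0.8. Pcdhgb4 fell by 0.135, from 0.676 in NC to 0.542 in siDNMT1 cells. Pcdhgb5 fell by 0.125, from 0.708 to 0.583. Pcdhb2 rose by 0.111, from 0.329 to 0.440, in the same direction as its promoter. Its 5′ UTR directly follows its upstream window, so the same reads may cover both, and the shared direction may not be a separate observation.

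In OB cells 2 of 12 changed, against 1.78% of all and 6.41% of those between 0.2 and 0.8, and both rose. Pcdhgb5 rose by 0.153, from 0.609 in NC OB to 0.762 in siDNMT1 OB cells. Pcdhga9 rose by 0.108, from 0.642 to 0.750, after levels of 0.630 and 0.543 in NC and siDNMT1 uninduced cells. In these cells Pcdhgb4 was at 0.640 and 0.567, a difference of -0.0733, and Pcdhb2 at 0.30 and 0.235, a difference of -0.0647. Pcdhgb5 and Pcdhga9 were therefore lower with siDNMT1 in one state and higher in the other, and Pcdhb2 the reverse.

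The 5′ UTRs that changed are short, as are several that did not. The annotated 5′ UTR of Pcdhb2 has 6 CpG in 164 bases, that of Pcdhgb4 9 in 185, that of Pcdhgb5 11 in 145 and that of Pcdhga9 3 in 184. Pcdhac2 and Pcdhgc4, with 45 and 28 CpG, differed by no more than 0.0357 in size in either siDNMT1 comparison. Pcdhga2, with 4 CpG in 152 bases, had differences of -0.0271 in uninduced and -0.0111 in OB cells. Pcdhga8 (10 CpG) and Pcdhgc3 (12 CpG) had differences of -0.0119 and -0.00133 in uninduced cells. The part of the number of CpG sites in these differences was not tested.

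Between the NC libraries 0 of 12 5′ UTRs changed (all 5′ UTRs 2.35%), and 10 of 12 were lower in OB, as were 63.5% of all 5′ UTRs and 69% of those between 0.2 and 0.8. The one nearest to the threshold was Pcdhgb5, with a difference of -0.0996. Between the siDNMT1 libraries 3 of 12 changed (all 5′ UTRs 2.72%): Pcdhb2 fell by 0.205, Pcdhgb5 rose by 0.179 and Pcdhga9 rose by 0.207.

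Exons of the family were more methylated than those of most genes. Over 47 genes with all 4 libraries the median of the mean levels was 0.625, against 0.353 over all 20401 genes, and 34 of 47 (72.3%) were at 0.5 or above against 35.9%. Medians were 0.508 for 14 classical cadherins, 0.404 for 12 non-clustered protocadherins, 0.349 for 37 Hox genes and 0.417 for 70 olfactory receptor genes. By group the medians were 0.517 for alpha, 0.611 for beta, 0.689 for gamma A, 0.691 for gamma B and 0.491 for C-type genes.

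**Figure D3:**
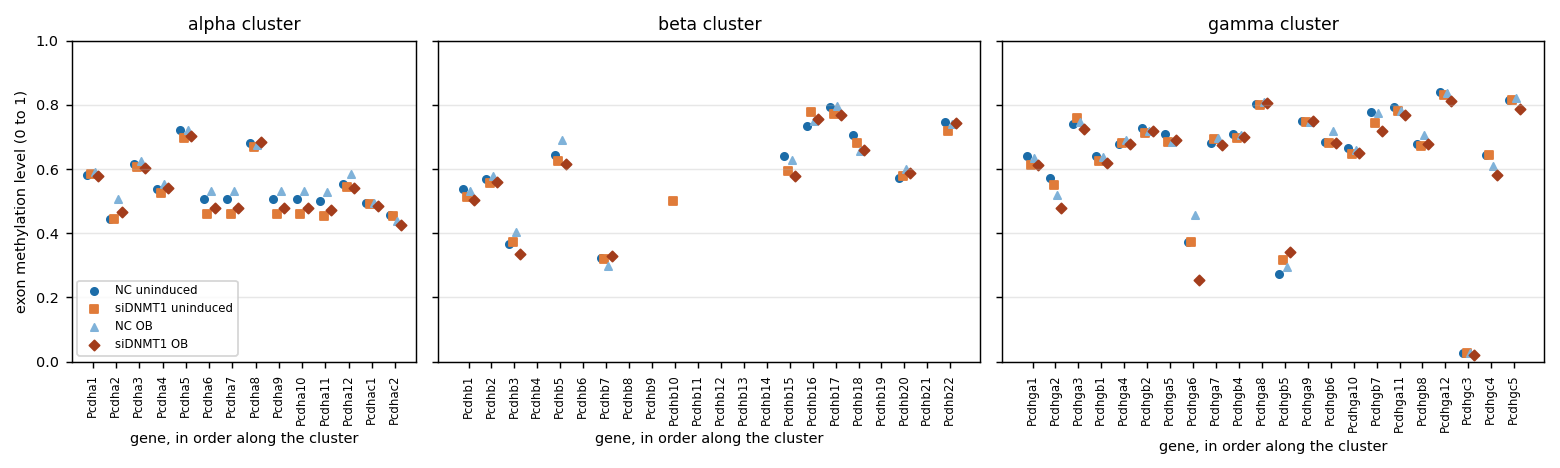
Exon methylation level (vertical axis, 0 to 1) of each gene in order along the alpha, beta and gamma clusters, with 1 point per library and no error, since each condition has 1 library. Most genes lie above 0.4 with the libraries close together, Pcdhgc3 lies near 0, and Pcdhga6 shows the widest spread, from 0.254 to 0.456.

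Neighbouring genes could differ by much more than the libraries did. The genes named in this paragraph, other than C-type genes, were chosen after their values were seen. Within the gamma cluster Pcdhga12 had the highest exon level, at 0.840, 0.832, 0.838 and 0.811, and its next neighbour Pcdhgc3 the lowest, at 0.0279, 0.0270, 0.0252 and 0.0216. Pcdhgb5 had 0.274, 0.318, 0.293 and 0.341, between Pcdhga8 (0.80 to 0.810) and Pcdhga9 (0.746 to 0.750). These exons are of unlike extent, as the annotated first exon of Pcdhgb5 has 4614 bases and those of Pcdhga8 and Pcdhga9 2611 and 2608. A stretch inside that of Pcdhgb5, chr18:37733135-37735135, had levels from 0.0979 to 0.165. The part of exon extent in this contrast was not tested. In the beta cluster Pcdhb7 lay between 0.297 and 0.330 and Pcdhb17 between 0.769 and 0.798. Among the 12 alpha genes, the C-type genes aside, the lowest by its mean was Pcdha2 (0.443 to 0.507) and the highest Pcdha5 (0.698 to 0.722).

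Several alpha values describe shared sequence. Pcdha6, Pcdha7, Pcdha9 and Pcdha10 had an identical exon level in every library, 0.507 in NC uninduced, 0.460 in siDNMT1 uninduced, 0.531 in NC OB and 0.477 in siDNMT1 OB cells. All 14 genes of the alpha locus share 3 constant exons, at chr18:37156155-37156213, chr18:37159265-37159353 and chr18:37184946-37187657, of which the last holds 35 CpG. All 22 gamma genes share constant exons at chr18:37825021-37825079 and chr18:37833265-37833353 and a last exon that starts at 37839903 and holds 39 CpG. An exon level of an alpha or gamma gene can therefore include, or rest wholly on, sequence common to the cluster, and the 47 exon levels comprise 44 distinct ones.

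With siDNMT1 the exon levels were mostly lower by small amounts. In uninduced cells 37 of 47 genes were lower, against 56.2% of all genes, with a median difference of -0.0110 (all genes -0.00186). In OB cells 39 of 47 were lower, against 66.9%, with a median difference of -0.0214 (all genes -0.00690). Genes with a mean exon level between 0.2 and 0.8, the range that holds most of the family, had medians of -0.00571 and -0.0163 and were lower in 60.7% and 73.1% of cases. With identical levels counted once, 34 of 44 and 36 of 44 were lower. Alpha levels, and gamma levels, can still include the same constant exons, so these counts do not stand for separate measurements. The values that 4 alpha genes share were lower with siDNMT1 in both comparisons, at -0.0471 and -0.0535. Those of Pcdha11, counted as distinct, were close to them, at -0.0456 and -0.0556.

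In uninduced cells 0 of 47 exon levels changed by 0.1 (all genes 1.63%), and differences lay between -0.0471 and 0.0443. In OB cells 1 of 47 changed (all genes 2.30%). This was Pcdhga6, a gamma A gene named here because it was the only exon change, which fell by 0.202, from 0.456 in NC OB to 0.254 in siDNMT1 OB cells. Its uninduced levels were 0.372 in NC and 0.373 in siDNMT1 cells, between the OB values. The remaining exon levels differed by between -0.0736 and 0.0473.

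**Figure D4:**
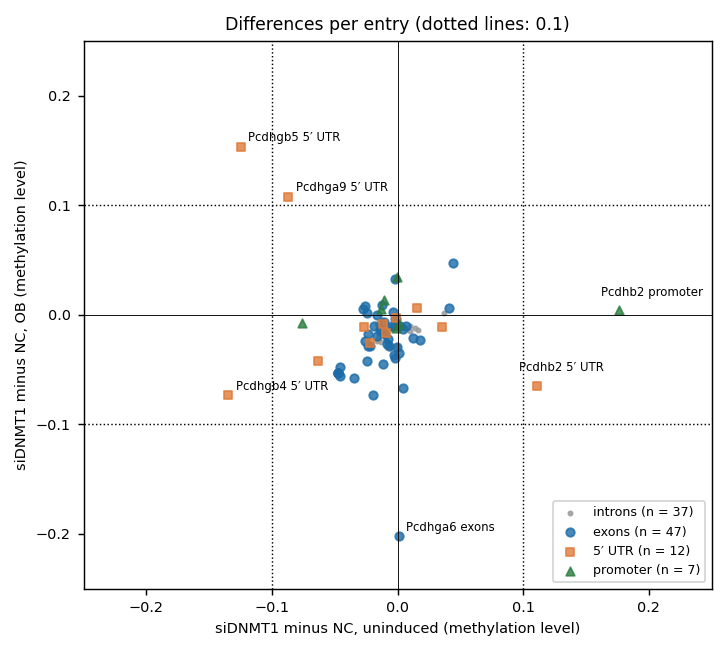
Difference in methylation level, siDNMT1 minus NC, in uninduced cells (horizontal axis) and in OB cells (vertical axis) for each promoter (n = 7), 5′ UTR (n = 12), exon (n = 47) and intron (n = 37) level of the family; dotted lines mark 0.1. Most points lie near 0 and towards the lower left, and the labelled points are those past 0.1 in at least 1 comparison.

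Between the NC libraries 0 of 47 exon levels changed (all genes 2.17%), and the median difference, OB minus uninduced, was 0.00630 where that of all genes was -0.00392. In the alpha group 11 of 12 genes were higher in OB, 4 of them with 1 shared value, with a median of 0.0236. The alpha levels can include the same constant exons, so they are not separate measurements. Of the 5 C-type genes, 4 were lower, where 62.5% of all genes were. Over the Hox genes 32 of 37 were lower, with a median of -0.0298. Between the siDNMT1 libraries 1 of 47 changed (all genes 3.61%), again Pcdhga6, which fell by 0.119, and the median was -0.00200.

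Intron levels of alpha and gamma genes overlap, because the intron after each variable exon runs across all variable exons downstream of it to the first constant exon. The 37 levels, 32 of them distinct, are therefore not independent values. That of Pcdhb2, the only beta gene with an intron level, stands outside this overlap. The annotated first exon of Pcdhb2 spans the whole gene, however, so its intron lies inside its own exon and repeats sequence of its exon level. In NC uninduced cells the gamma introns went from 0.619 at Pcdhga1 to 0.494 at Pcdhgb7 and 0.311 at Pcdhga12, and were 0.532 at Pcdhgc3, 0.805 at Pcdhgc4 and 0.814 at Pcdhgc5. The alpha introns went from 0.536 at Pcdha1 to 0.437 at Pcdha12, with 0.414 at Pcdhac1 and 0.480 at Pcdhac2. The intron of Pcdhga12 spans the CpG-rich start of Pcdhgc3, while those of Pcdhgc3 and its downstream neighbours lie beyond it.

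Introns were lower with siDNMT1 in 32 of 37 genes in uninduced cells (all genes 61.9%) and in 36 of 37 in OB cells (all genes 74.4%). Median differences were -0.0109 and -0.0123, where all genes had -0.00436 and -0.0131. In neither comparison did any of the 37 change by 0.1 (0 of 37, with 1.32% and 1.87% of all genes changed). Pcdhgc5, the last gene of the cluster, had 0.814, 0.807, 0.801 and 0.771, and the siDNMT1 OB library was the lowest of the 4. Between the NC libraries 34 of 37 were lower in OB (all genes 60.3%) and 0 of 37 changed (all genes 1.77%). Between the siDNMT1 libraries 36 of 37 were lower (all genes 71.9%) and 0 of 37 changed (all genes 3.28%). Since the introns overlap, these counts do not stand for 37 separate measurements.

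Of the 15 3′ UTR levels, 13 were exactly 1.000 in all 4 libraries and belonged to the alpha locus. Over all 4354 genes with a 3′ UTR level, 14 stood at 1.000 throughout, of which 13 were these genes and 1 was another gene. Their annotated 3′ UTR is shared, so the 13 levels are not independent of each other. Pcdha6 alone in the alpha locus had another level, at 0.534, 0.482, 0.542 and 0.496. It shares the last exon, chr18:37184946-37187657 with 35 CpG, with all genes of the alpha locus. How many CpG sites or reads stand behind the levels of 1.000 is unknown. These levels therefore do not show that the shared alpha 3′ UTR is fully methylated. Pcdhgc3 had 0.0404, 0.0380, 0.0354 and 0.0319. No other gamma gene had a 3′ UTR level, although all gamma genes share the last exon. The level of Pcdhgc3 may therefore describe sequence other than that shared 3′ end, and its position was not determined. With siDNMT1, 0 of 15 changed in uninduced cells (all genes 2.71%) and 0 of 15 in OB cells (all genes 3.65%). With OB induction 0 of 15 changed in NC cells (all genes 2.94%) and 0 of 15 in siDNMT1 cells (all genes 4.69%).

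The 5 C-type genes covered almost the whole scale. The exon levels of Pcdhac1 lay between 0.483 and 0.495 and those of Pcdhac2 between 0.426 and 0.457. Pcdhgc3 lay below 0.05 in its promoter, 5′ UTR, exons and 3′ UTR in all 4 libraries. The position of its 3′ UTR level was not determined, so some of these classes may describe the same stretch. They do not show that the gene is unmethylated up to its shared 3′ end. Pcdhgc4, its next neighbour downstream, had exon levels of 0.643, 0.643, 0.611 and 0.582, and Pcdhgc5, the last gene of the cluster, 0.815, 0.815, 0.821 and 0.786. The 3 gamma C-type genes thus differed from each other in exon level by more than any of them differed between libraries. In OB cells 5 of 5 C-type exon levels were lower with siDNMT1 (all genes 66.9%), by amounts from -0.0353 to -0.00358. No C-type gene changed by 0.1 in any class with siDNMT1.

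**Figure D5:**
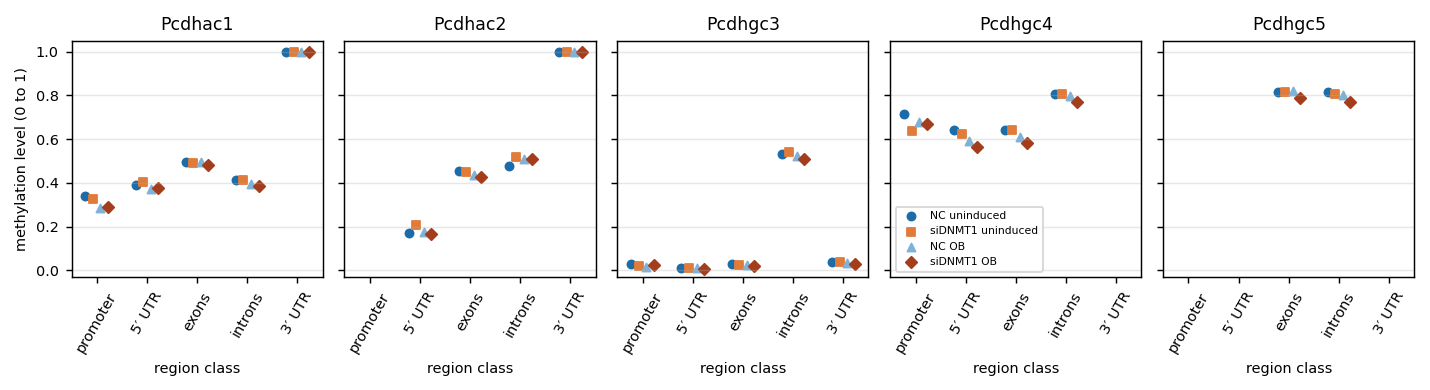
Methylation level (vertical axis, 0 to 1) of the 5 C-type genes in each gene class (horizontal axis), with 1 point per library and no error, since each condition has 1 library; a class without points was not listed. Pcdhgc3 stays near 0 outside its introns, Pcdhgc5 lies near 0.8, and the points of the 4 libraries nearly coincide in most classes.

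CpG islands are CpG-dense stretches that are unmethylated at most genes, and in the protocadherin clusters most of them were methylated. The spans of the 3 clusters held 15 listed islands, 14 with all 4 libraries. Their median level was 0.743, against 0.0300 over all 14095 islands, and 11 of 14 (78.6%) were at 0.5 or above against 14.8% of all islands. The islands that cover a gene start had mean levels of 0.755 (Pcdha5), 0.433 (Pcdhac1), 0.348 (Pcdhac2), 0.766 (Pcdhga11) and 0.0201 (Pcdhgc3). The rest lie away from gene starts, most of them at first exons. All islands were not split by position, so the comparison may set unlike kinds of island side by side. Islands named below other than those of C-type genes were chosen after their values were seen.

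The island at the start of Pcdhgc3, chr18:37805999-37807484 with 116 CpG, was the least methylated, at 0.0229, 0.0215, 0.0183 and 0.0177. The shore downstream of it, chr18:37807485-37809485, was at 0.0482, 0.0435, 0.0477 and 0.0423. The islands at the starts of the alpha C-type genes were intermediate. That of Pcdhac1, chr18:37089893-37090399, had 0.439, 0.438, 0.434 and 0.419, and that of Pcdhac2, chr18:37143449-37144497, 0.371, 0.381, 0.316 and 0.326. The most methylated was the island inside the first exon of Pcdhga12, chr18:37766285-37766983, at 0.877, 0.872, 0.882 and 0.855. With siDNMT1, 0 of 14 islands changed in uninduced cells (all islands 0.482%) and 0 of 14 in OB cells (all islands 0.681%). With OB induction 0 of 14 changed in NC cells (all islands 1.18%) and 0 of 14 in siDNMT1 cells (all islands 1.26%).

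Shores, the 2 kb flanks of islands, were also more methylated here than elsewhere. The median over 36 shores inside the clusters was 0.605, against 0.271 over all 16439 shores. Shores named by position were chosen after their values were seen. In uninduced cells 2 of 36 changed with siDNMT1 (all shores 1.91%). The shore chr18:36978149-36980148 in the alpha cluster rose by 0.260, from 0.125 to 0.385, and was at 0.179 in NC OB and 0.125 in siDNMT1 OB cells. The shore chr18:37730639-37732638 across the start of Pcdhgb5 fell by 0.148, from 0.611 to 0.463.

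In OB cells 1 of 36 shores changed (all shores 2.59%), again the one at Pcdhgb5, which rose by 0.119, from 0.50 to 0.619. It covers the 5′ UTR of Pcdhgb5 and so is not independent of the changes given for that UTR. The shore chr18:37764284-37766283 across the start of Pcdhga12 was nearly unmethylated, at 0, 0.0159, 0.00855 and 0, beside the island of the same gene, the most methylated of the 14. Several shores overlap each other or an exon, so their levels repeat values given above. Between the NC libraries 1 of 36 shores changed (all shores 2.86%): the shore at Pcdhgb5, which fell by 0.111. Between the siDNMT1 libraries 4 of 36 changed (all shores 4.48%). The shore chr18:36978149-36980148 fell by 0.260, that at Pcdhgb5 rose by 0.156, and chr18:36948160-36950160 at the first exon of Pcdha3 and chr18:37018351-37020350 at the start of Pcdha12 rose by 0.103 and 0.104.

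Promoters of related and connected genes were read in 4 further lists. Of the 12 non-clustered protocadherins, single genes outside the clusters, 10 had a promoter level in all 4 libraries, with a median of 0.164, from Pcdh18 (0.0173 to 0.0195) to Pcdh12 (0.823 to 0.865). Of 18 classical cadherins, the calcium-dependent adhesion family, 11 had one, with a median of 0.503, from Cdh2 (0.0280 to 0.0487) to Cdh4 (0.665 to 0.693). For the chromatin architecture and silencing factors that act on the clusters, such as Ctcf, the cohesin subunits and the DNA methyltransferases, 14 of 15 were read, with a median of 0.0291. The lowest was Stag1 (0.0109 to 0.0135) and the highest Smc1a (0.359 to 0.442), both cohesin subunits and the latter on chromosome X. The 10 signalling partners of the protocadherin cytoplasmic tails had a median of 0.0341, from the kinase gene Ptk2 (0.0104 to 0.0155) to its relative Ptk2b (0.339 to 0.349). In each of the 4 lists 0 promoters changed with siDNMT1, in uninduced cells and in OB cells, beside the 1.48% and 2.19% of all promoters.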

How the data were processed

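The authors deposited, per library, the methylation level of each region as a fraction from 0 to 1. Per the labels and the methods, Trimmomatic (version 0.36) cleaned the reads and Bismark (version 0.16.3) mapped them, with mm10 as the reference. A promoter covers 2 kb before the start of transcription. The coverage minimum, the weighting of cytosines and the treatment of reads that match several members are not given in the sources used here. The series is titled as reduced representation, whereas its library protocol describes sonication and names no restriction enzyme.

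Gene classes were joined to GENCODE vM21 by Ensembl identifier, and CpG and CCGG were counted in GRCm38. Differences were computed over regions listed in all 4 libraries, a change being at least 0.1. With 1 library per condition and no read counts, no test, interval or error was possible. The members, the lists and the rules were chosen with earlier results of these data known. Named were the C-type genes, the lowest and highest promoter of each group, each promoter or 5′ UTR changed with siDNMT1, and the ends of each list, and all other genes and regions named were chosen after their values were seen. The functions were tested on simulated data. Alternatives covered the threshold, centring on the library median, the background, overlapping windows and internal starts. Python 3.11.15, pandas 2.3.3, numpy 2.4.6 and matplotlib 3.10.9 were used.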

Additional observations from a re-analysis of the deposited data

Results flagged for a closer look

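In 5 regions the siDNMT1 difference had opposite signs before and after OB induction, by at least 0.05 in each state and at least 0.1 in 1 of them. The value given is the OB difference minus the uninduced difference. It was not tested, since each condition has 1 library. For 5′ UTRs it was -0.175 for Pcdhb2 (0.111 uninduced, -0.0647 in OB), 0.278 for Pcdhgb5 (-0.125 and 0.153) and 0.195 for Pcdhga9 (-0.0869 and 0.108). For shores it was -0.314 for chr18:36978149-36980148 (0.260 and -0.0545) and 0.267 for chr18:37730639-37732638 (-0.148 and 0.119), which covers the 5′ UTR of Pcdhgb5. These regions were picked by their size among all levels of the family, and the number of reads behind each is unknown. Several of their levels are simple fractions, such as 0.125, 0.30 and 0.50, which a small number of reads can give. The part of low depth in these differences was not tested.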

How the results depend on the processing

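Levels have no read counts, so depth limits every value here to an unknown degree. With thresholds of 0.05 and 0.2, promoters changed with siDNMT1 in uninduced cells numbered 2 and 0, 5′ UTRs 5 and 0, and 5′ UTRs in OB cells 4 and 0. At 0.05, changes numbered 9 for exons in OB cells and 1 for 3′ UTRs in uninduced cells, and, between the NC libraries, 1 for promoters, 2 for 5′ UTRs and 3 for exons. At 0.2, the promoter changed between the siDNMT1 libraries was lost (0). Centring each library on its median moved the promoter median difference to 0.0140 in OB cells, 0.0231 between the NC and 0.0314 between the siDNMT1 libraries. Added after seeing the data, centring other classes gave, in OB cells, -0.00836 for exons, 0.00409 for introns, a change of sign, and 0.0238 for 3′ UTRs, and 0.0197 for exons between the NC libraries. Without members whose upstream window overlaps a neighbour, the promoter medians were -0.0122 in uninduced cells, -0.0271 between the NC libraries and -0.0144 between the siDNMT1 libraries, the latter pair with a change of sign. Without members with an internal start, also added later, the median between the siDNMT1 libraries was -0.0147. Against promoters with a mean level of 0.2 to 0.8, the background was 2.58% in uninduced cells, 4.18% in OB cells, 4.06% between the NC and 6.27% between the siDNMT1 libraries. Means over members gave promoter levels of 0.721 for gamma A and 0.335 for C-type genes. Counting shores that overlap a cluster edge gave 2 changes between the NC libraries. Another 116 recomputed values stayed close to those given. No paired analysis was possible because each condition has 1 library. Repeats inside the clusters were not run, since the repeat entries carry family names without positions.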

Other observations

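Some regions had a level in fewer than 4 libraries and entered only the counts of listed regions. The exon level of Pcdhb10 was listed in siDNMT1 uninduced cells alone, at 0.50. The 5′ UTR of Pcdhga4 had 0.40 in NC uninduced, 0.264 in siDNMT1 uninduced and 0.25 in NC OB cells. Its differences were -0.136 with siDNMT1 in uninduced cells and -0.15 between the NC libraries. Both pass 0.1 but are not in the counts of changes, because the siDNMT1 OB level is missing. The island inside the first exon of Pcdhga2, chr18:37669647-37669911, had 0.773 in NC and 0.759 in siDNMT1 uninduced cells, and the shore after it, chr18:37669912-37671912, 0.648 and 0.811. The difference of that shore, 0.163, also passes 0.1 and is not in the counts of changes.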
